A study of Homo sapiens with 6 samples.

Results

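The chaperone genes of Hep3B cells were examined by day after knockdown of NXN. They comprised 48 listed genes for heat shock factors, heat shock proteins, J-domain proteins, chaperonin subunits and their co-chaperones in the cytosol, nucleus and mitochondria, chosen by name from the Ensembl identifiers and not by their values. The tables held 23406 features, and all 48 genes were among the 14071 that passed the filter on low counts and were tested. HSPB11 is listed as a heat shock protein but is also named IFT25, a protein of ciliary transport, and DNAJC10 is a J-domain protein of the endoplasmic reticulum.

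Hep3B is a human hepatocellular carcinoma (HCC) cell line, and NXN encodes nucleoredoxin, a redox-active protein. The study profiled the line to ask what follows when NXN is reduced in HCC cells. The 6 RNA sequencing libraries were 3 of cells with a control hairpin (shControl) and 3 of cells with a hairpin against NXN (shNXN), 1 of each on days 7, 9 and 11. Both groups carried the genotype label WT, received their hairpins on lentivirus, and were selected with puromycin for one week. The labels do not settle whether the days were counted from transduction or from the end of selection, nor which of the hairpins used in the study was sequenced. With 1 cell line and 1 library for each group and day, the replicates of a group are its 3 days, no label says that they were separate cultures, and p-values measure only the spread between these libraries.

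Chaperones help proteins to fold and keep unfolded chains from aggregating. HSP70 proteins bind short stretches of unfolded chains in cycles set by J-domain proteins and exchange factors, HSP90 acts later on kinases, receptors and other clients, and the chaperonins enclose a chain in a barrel. Heat shock factors, chiefly HSF1, switch on many of these genes when unfolded proteins accumulate, by binding inverted repeats of the letters GAA in their promoters.

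NXN itself measured 181, 138 and 143 CPM (counts scaled to library size) in shControl cells on days 7, 9 and 11 and 42.7, 47.5 and 39.5 CPM in shNXN cells. The groups did not overlap, and NXN fell by 1.83 on the log2 scale (standard error 0.16, edgeR, adjusted p = 0.0378). The exact two-sided permutation test over libraries gave p = 0.1, the smallest it allows with 3 against 3. Libraries held 15349382 to 16332589 counts. The hepatocyte markers ALB, AFP, APOA1, APOA2, APOB, SERPINA1, TTR and HNF4A were detected in every library, in FPKM (fragments per unit of transcript length, scaled to the library). Among them ALB, at 6447, 12145 and 4409 FPKM in shControl cells and 1084, 489 and 4735 FPKM in shNXN cells on days 7, 9 and 11, and AFP, at 1093, 1129 and 819 against 440.5, 246 and 889 FPKM, were lower in shNXN cells on days 7 and 9 and near the control on day 11. APOA2, SERPINA1 and HNF4A were higher in shNXN cells on each day. The part of this in the chaperone values was not tested. The 7 measured markers of blood, endothelial and stromal cells summed to 0.98 to 1.69 FPKM per library, with 2 of them at 0 counts in every library.

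The sequences that heat shock factors recognise were looked up in the promoters, taken as 250 bases before to 50 bases after each start in RefSeq (GRCh38.p14). Of the 48 genes, 44 had an entry, with 59 promoters. A run of 3 inverted units, GAANNTTCNNGAA or TTCNNGAANNTTC, stood in 6 of the 59 promoters, each of a different gene, and in 0.49% of all 35116 promoters. The pair of units, GAANNTTC or TTCNNGAA, which every longer match contains, stood in 18 of the 59 promoters, of 17 genes, and in 13.5% of all promoters. The 6 promoters with the longer run are printed because the genes they belong to are followed by day through the text. They are HSPA8 (chr11:123062087-123062386, minus strand), HSP90AA1 (chr14:102086995-102087294, minus strand), HSP90AB1 (chr6:44247693-44247992, plus strand), HSPD1 (chr2:197499791-197500090, minus strand), DNAJA1 (chr9:33025023-33025322, plus strand) and DNAJB6 (chr7:157336754-157337053, plus strand). Capitals mark the runs of 3 inverted units, which overlap in HSPD1.
HSPA8: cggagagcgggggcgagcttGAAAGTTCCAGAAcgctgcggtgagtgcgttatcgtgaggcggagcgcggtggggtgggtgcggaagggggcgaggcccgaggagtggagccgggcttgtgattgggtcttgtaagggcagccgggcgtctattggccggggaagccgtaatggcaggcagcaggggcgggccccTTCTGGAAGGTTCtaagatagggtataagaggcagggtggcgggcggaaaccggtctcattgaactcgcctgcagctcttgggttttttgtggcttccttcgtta
HSP90AA1: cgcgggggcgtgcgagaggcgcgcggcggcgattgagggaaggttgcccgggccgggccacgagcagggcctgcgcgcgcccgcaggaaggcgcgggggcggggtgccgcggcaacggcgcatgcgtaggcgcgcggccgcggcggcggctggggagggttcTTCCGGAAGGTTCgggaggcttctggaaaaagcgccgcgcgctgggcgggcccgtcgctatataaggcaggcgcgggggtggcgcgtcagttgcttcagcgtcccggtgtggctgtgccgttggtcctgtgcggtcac
HSP90AB1: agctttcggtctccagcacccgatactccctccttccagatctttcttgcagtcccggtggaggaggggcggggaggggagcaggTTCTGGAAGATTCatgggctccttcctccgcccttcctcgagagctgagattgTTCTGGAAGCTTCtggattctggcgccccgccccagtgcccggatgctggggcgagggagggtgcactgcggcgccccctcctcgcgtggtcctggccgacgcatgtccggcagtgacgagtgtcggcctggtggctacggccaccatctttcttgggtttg
HSPD1: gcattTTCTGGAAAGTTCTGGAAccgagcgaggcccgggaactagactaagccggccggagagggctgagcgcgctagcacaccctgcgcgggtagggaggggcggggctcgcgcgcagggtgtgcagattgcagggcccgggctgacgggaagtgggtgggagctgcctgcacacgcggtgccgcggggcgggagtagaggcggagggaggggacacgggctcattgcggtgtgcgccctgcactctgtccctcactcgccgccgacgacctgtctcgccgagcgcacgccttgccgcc
DNAJA1: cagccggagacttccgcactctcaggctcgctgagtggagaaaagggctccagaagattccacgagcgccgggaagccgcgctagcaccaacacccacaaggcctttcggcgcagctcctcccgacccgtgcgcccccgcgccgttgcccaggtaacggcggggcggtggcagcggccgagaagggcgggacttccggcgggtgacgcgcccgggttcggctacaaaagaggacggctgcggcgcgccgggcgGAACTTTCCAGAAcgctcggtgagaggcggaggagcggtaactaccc
DNAJB6: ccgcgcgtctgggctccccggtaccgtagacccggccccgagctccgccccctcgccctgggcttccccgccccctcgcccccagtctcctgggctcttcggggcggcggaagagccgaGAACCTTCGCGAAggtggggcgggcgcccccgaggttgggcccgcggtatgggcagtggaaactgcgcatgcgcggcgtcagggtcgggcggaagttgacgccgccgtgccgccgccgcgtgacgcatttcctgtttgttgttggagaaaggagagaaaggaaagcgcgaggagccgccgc
In CPM, HSPA8, HSP90AA1, HSP90AB1 and HSPD1 were below their controls on days 7 and 9 and close to them on day 11, as described for each gene below. DNAJA1, a partner of HSP70, differed by -0.16, -0.61 and -0.15 on days 7, 9 and 11 (log2 of CPM + 1, shNXN minus shControl). DNAJB6, which keeps chains from aggregating, differed by 0.14, 0.23 and 0.19. The 6 genes with the longer run therefore did not share 1 direction. A match in these windows is a description of the letters and not of binding.

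TRAP1, the HSP90 protein of mitochondria, and HSPB1, the small heat shock protein HSP27, rose in shNXN cells. PTGES3, the HSP90 co-chaperone p23, fell in counts but not in FPKM, as described below. These 3 of the 48 genes (6.25%) passed the test (edgeR, adjusted p under 0.05), against 3.39% of all tested features. The 2 higher genes stood beside 0.185% of all features called higher, and the 1 lower gene beside 3.21% called lower. With the replicate number, which marks the day, as a block, 13 genes passed, 11 lower and 2 higher (27.1%), against 23.3% of all features, so their share lay near the background. The 11 lower genes were 22.9% of the list, beside 17% of all features, and the 2 higher genes were 4.17%, beside 6.28%. DESeq2 called 19 genes, 12 lower and 7 higher, against 23.5% of all features, 16.8% lower and 6.74% higher. At an unadjusted p under 0.05, edgeR gave 21 genes, against 32.9% of all features. The median log2 fold change of the 48 genes was -0.25, beside 0.03 over all tested features.

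For 24 genes the libraries of the groups did not overlap. The 11 genes with every shNXN library below every shControl library were 22.9% of the list (21.5% of all features), and the 13 with every shNXN library above were 27.1% (19% of all features). Within days, 22 genes were lower in shNXN cells on each day, 18 higher on each day and 8 mixed. The sign was thus the same on each day for 40 genes, beside 68.4% of all features.

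Large falls were fewer on day 11, but a smaller difference on that day was not general. The difference was smallest in size on day 11 for 25 of the 48 genes, beside 6754 of all 14071 features. PTGES3 (-1.18, -0.52 and -1.30 on days 7, 9 and 11) and HSPB1 (0.56, 0.61 and 0.65) differed most on day 11. TRAP1 (0.54, 0.80 and 0.56) differed least on day 7. The log2 difference was -1 or less for 12 genes on day 7 (14.9% of all features), 13 on day 9 (17.3%) and 4 on day 11 (6.81%). No gene of the 48 was higher by 1 or more on any day, beside 1.41%, 0.952% and 1.48% of all features. The median difference of the 48 genes was -0.24, -0.31 and -0.05 on days 7, 9 and 11. Leaving out the shNXN library of day 11 gave 20 called genes, 17 lower and 3 higher (edgeR, 25.8% of all features, 21.4% lower and 4.4% higher), and the libraries of days 7 and 9 alone, an alternative chosen after seeing the data, gave 22, 18 lower and 4 higher (31.8% of all features, 23.8% lower and 7.99% higher).

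**Figure D1:**
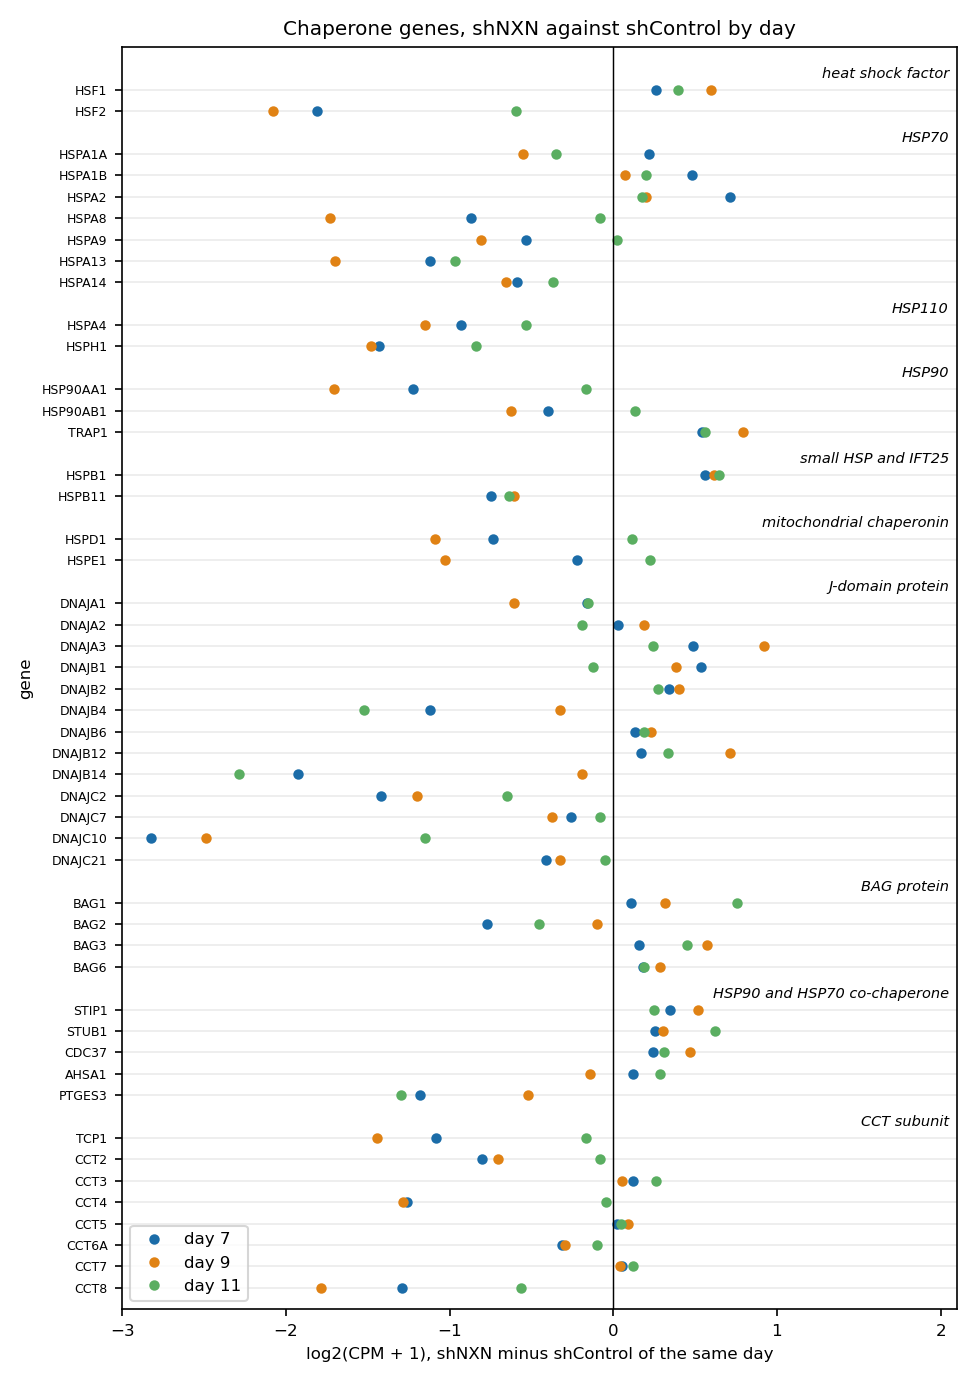
Log2 difference of CPM + 1 between the shNXN and the shControl library of the same day (horizontal axis) for each of the 48 chaperone genes (vertical axis, grouped by role), 1 point for day 7, 9 or 11. Points of HSP110, HSP90AA1, HSPA8, TCP1, CCT4 and CCT8 lie left of 0 with day 11 nearest to it, and points of TRAP1, HSPB1 and most co-chaperones lie right of 0.

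The heat shock factors differed in direction in counts. HSF1, the main activator of the heat shock response, measured 118, 111 and 104 CPM in shControl cells and 142, 168 and 137 CPM in shNXN cells. The shNXN libraries all lay above the shControl libraries, and the log2 fold change was 0.43 (standard error 0.14, edgeR, adjusted p = 0.0919, 0.0508 with the block), so HSF1 did not pass. With the block and a correction for GC content, described below, HSF1 stood at 0.01 (edgeR, adjusted p = 0.962). HSF2, a related factor that can pair with HSF1, measured 26.0, 31.7 and 26.4 CPM in shControl cells and 6.69, 6.74 and 17.1 CPM in shNXN cells. Its shNXN libraries all lay below, with the day 11 library nearest to the controls. The log2 fold change was -1.46 (standard error 0.39, edgeR, adjusted p = 0.0717), and with the block HSF2 passed (adjusted p = 0.0353). With the block and GC correction HSF2 stood at -0.71 and did not pass (edgeR, adjusted p = 0.169). In FPKM HSF2 measured 12.4, 27.3 and 12.2 against 6.05, 5.70 and 11.9, nearly equal on day 11. Its log2 fold change on log2(FPKM + 1) was -1.02 and did not pass (limma, adjusted p = 0.137).

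Among the 7 HSP70 genes none passed without the block, and in CPM HSPA8, HSPA9, HSPA13 and HSPA14 were lower in shNXN cells on days 7 and 9. HSPA8, the constitutive HSC70, measured 1129, 1129 and 1764 CPM in shControl cells and 617, 339.8 and 1666 CPM in shNXN cells. Day 11 was the highest in both groups and nearly equal between them. The within-day log2 differences were -0.87, -1.73 and -0.08, and the log2 fold change over all days, -0.62 (standard error 0.54, edgeR, adjusted p = 0.434), did not pass. Without the shNXN library of day 11 it was -1.49 and passed (edgeR, adjusted p = 0.0162), in a fit that called 25.8% of all features. That fit kept the shControl library of day 11, the highest of the controls. With days 7 and 9 only, chosen after seeing the data, HSPA8 stood at -1.24 (edgeR, adjusted p = 0.00946, 31.8% of all features called). Over all fits with 1 library left out HSPA8 ranged from -1.49 to -0.23 (edgeR, adjusted p from 0.0162 to 0.781).

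The stress-inducible genes HSPA1A and HSPA1B share 74.3% of the 31-base words of the HSPA1A transcript, so their counts depend on how reads were divided between them. HSPA1B measured 82.5, 102 and 146 CPM in shControl cells and 116, 107 and 168 CPM in shNXN cells, and the groups overlapped (log2 fold change 0.24, standard error 0.26, edgeR, adjusted p = 0.528). HSPA1A lay between 0.98 and 2.33 CPM in all libraries, on 15.8 to 38.4 counts, which is too few to show a difference of the size seen for HSPA1B. HSPA1B was higher in shNXN cells on each day, by 0.48, 0.07 and 0.20 on the log2 scale, and with the block its log2 fold change was 0.25 (standard error 0.12) and did not pass (edgeR, adjusted p = 0.160).

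HSPA9, the mitochondrial HSP70 mortalin, measured 453, 488 and 497 CPM in shControl cells and 313, 279 and 504 CPM in shNXN cells, with day 11 at the control level (log2 fold change -0.39, standard error 0.23, edgeR, adjusted p = 0.257). HSPA13, an HSP70-like protein of microsomes, measured 51.0, 49.7 and 79.6 CPM against 22.9, 14.6 and 40.2 CPM. HSPA14, which binds nascent chains at the ribosome, measured 42.7, 38.5 and 41.0 CPM against 28.1, 24.0 and 31.6 CPM. HSPA13 and HSPA14 did not overlap between groups and passed with the block, at log2 fold changes of -1.30 and -0.55 (edgeR, adjusted p = 0.0184 and 0.0435), but not without it (adjusted p = 0.0907 and 0.0864). With the block and a correction for GC content, HSPA13 turned to 0.18 and HSPA14 stood at -0.01, and neither passed (edgeR, adjusted p = 0.631 and 0.971). HSPA2, the remaining HSP70, was the only one of the 7 with every shNXN library above every shControl library, at 5.11 to 5.89 CPM against 6.77 to 9.01 CPM.

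The HSP110 proteins HSPA4 and HSPH1, which exchange the nucleotide of HSP70 and help it to dissolve aggregates, were lower in every shNXN library than in any shControl library. HSPA4 measured 252, 318 and 292 CPM in shControl cells and 132, 143 and 201 CPM in shNXN cells. HSPH1 measured 161, 149 and 263 CPM in shControl cells and 59.0, 52.8 and 146 CPM in shNXN cells. Their log2 fold changes were -0.86 (standard error 0.19) and -1.15 (standard error 0.43), short of the threshold without the block (edgeR, adjusted p = 0.0568 and 0.121) and past it with the block (adjusted p = 0.0221 and 0.0156). With the GC correction and the block, described below with the GC content, they stood at -0.26 and -0.32 and did not pass (edgeR, adjusted p = 0.186 and 0.150). The sum of the pair was 413, 467 and 555 CPM in shControl cells and 191, 196 and 348 CPM in shNXN cells.

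Of the 3 HSP90 genes, TRAP1 alone passed. HSP90AA1, the stress-inducible cytosolic isoform, measured 670.4, 667 and 844 CPM in shControl cells and 286.5, 204 and 752 CPM in shNXN cells. HSP90AB1, the constitutive cytosolic isoform, measured 1711, 1921 and 2156 CPM in shControl cells and 1296, 1248 and 2364 CPM in shNXN cells. In CPM both were lower on days 7 and 9, and on day 11 the log2 differences were -0.17 for HSP90AA1 and 0.13 for HSP90AB1. In FPKM HSP90AA1 was above its controls on days 7 and 9, as described below. Over all days neither passed (log2 fold changes -0.81 and -0.24, standard errors 0.45 and 0.26, edgeR, adjusted p = 0.243 and 0.536), and without the shNXN library of day 11 both did (log2 fold changes -1.57 and -0.60, adjusted p = 0.00274 and 0.0271). That fit called 25.8% of all features and kept the shControl library of day 11. With days 7 and 9 only they stood at -1.45 and -0.51 (edgeR, adjusted p = 0.00108 and 0.0148, 31.8% of all features called). Over all fits with 1 library left out, HSP90AA1 ranged from -1.57 to -0.48 and HSP90AB1 from -0.60 to -0.07 (edgeR, adjusted p up to 0.507 and 0.894). TRAP1 measured 151, 147 and 148 CPM in shControl cells and 220.5, 256 and 219.6 CPM in shNXN cells, a similar rise on each day. Its log2 fold change was 0.64 (standard error 0.12, edgeR, adjusted p = 0.0473), or 1.56-fold.

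Of the 5 co-chaperones of HSP90 and HSP70, PTGES3 fell in counts and the other 4 had positive log2 fold changes that did not pass. PTGES3, which holds the closed state of HSP90, measured 337, 224 and 365 CPM in shControl cells and 148, 155 and 148 CPM in shNXN cells. The 3 shNXN libraries were nearly equal, while the control of day 9 was lower than those of days 7 and 11. The log2 fold change was -1.04 (standard error 0.19, edgeR, adjusted p = 0.0473), or 0.488 of the control level. With the block and GC correction PTGES3 stood at -0.45 and did not pass (edgeR, adjusted p = 0.336). On log2(FPKM + 1) it stood at -0.05 (limma, adjusted p = 0.885). STIP1, the adaptor HOP that joins HSP70 to HSP90, measured 240.1, 238 and 298 CPM against 306, 341 and 354 CPM (log2 fold change 0.37, standard error 0.14, edgeR, adjusted p = 0.128). STUB1, the ubiquitin ligase CHIP, measured 72.9, 80.6 and 57.2 CPM against 87.1, 99.6 and 88.6 CPM (log2 fold change 0.39, standard error 0.17, edgeR, adjusted p = 0.156). CDC37, which brings kinases to HSP90, and AHSA1, which speeds its ATPase, had log2 fold changes of 0.34 and 0.09. With the block and GC correction, STIP1, STUB1, CDC37 and AHSA1 stood at 0.06, -0.02, -0.02 and -0.14, and none passed (edgeR).

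HSPB1, which holds unfolded proteins without using ATP, measured 323, 336 and 302 CPM in shControl cells and 477, 515 and 474 CPM in shNXN cells. The log2 differences of days 7, 9 and 11, 0.56, 0.61 and 0.65, were close to each other, and the fold change was 1.53 (log2 fold change 0.61, standard error 0.11, edgeR, adjusted p = 0.0473). HSPB11 measured 12.7, 11.1 and 11.0 CPM against 7.18, 6.99 and 6.70 CPM. It did not overlap between groups, and its log2 fold change of -0.74 (standard error 0.20) did not pass without the block (edgeR, adjusted p = 0.0719) and passed with it (0.0390).

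The calls of TRAP1, HSPB1 and PTGES3 depended on which library was left out. Without shControl of day 7 or 11, or shNXN of day 7 or 9, edgeR called 0 of the 48 genes and 0% of all features (adjusted p of each of the 3 genes up to 0.225), so the loss was not particular to these genes. Without shControl of day 9 it called 2 of the 48, both lower, and 1.73% of all features. Without shNXN of day 11 all 3 passed (adjusted p = 0.0123 for TRAP1, 0.0140 for HSPB1 and 0.0187 for PTGES3), with 25.8% of all features called. The direction of the 3 genes held in each case.

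The mitochondrial chaperonin HSPD1 (HSP60) and its lid HSPE1 (HSP10), which are neighbouring genes transcribed in opposite directions, were lower in CPM on days 7 and 9. In FPKM HSPD1 was above its control on day 7, at 601 against 497, and below it on day 9, at 564 against 752. HSPD1 measured 1001, 1051 and 1152 CPM in shControl cells and 602, 494 and 1247 CPM in shNXN cells. HSPE1 measured 158, 266 and 155 CPM in shControl cells and 135, 130.1 and 181 CPM in shNXN cells. On day 11 both were above their controls, by 0.11 and 0.23 on the log2 scale, and over all days neither passed (log2 fold changes -0.45 and -0.37, standard errors 0.33 and 0.25, edgeR, adjusted p = 0.355 and 0.317). The shControl library of day 9, where HSPE1 was highest, also held 307 counts of the readthrough transcript HSPE1-MOB4, which shares exons with HSPE1, against 0 to 38.1 counts in the other 5 libraries. The part of that transcript in the HSPE1 counts was not tested.

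The 13 J-domain genes held both the lowest log2 fold change of the list and several positive ones, from -1.96 to 0.55, and none passed without the block. DNAJC10 (ERdj5), which reduces disulphide bonds in the endoplasmic reticulum, measured 319.9, 273 and 318 CPM in shControl cells and 44.2, 47.9 and 142 CPM in shNXN cells. All shNXN libraries lay far below the controls, and the log2 fold change was -1.96 (standard error 0.45, edgeR, adjusted p = 0.0579, 0.0214 with the block). DNAJC2, the ribosome-bound partner of HSPA14, measured 44.2, 34.1 and 44.1 CPM against 15.9, 14.3 and 27.7 CPM (log2 fold change -1.08, standard error 0.29, edgeR, adjusted p = 0.0698, 0.0243 with the block). DNAJB4 measured 12.3, 4.55 and 14.1 CPM against 5.11, 3.43 and 4.25 CPM, with overlapping groups (log2 fold change -1.27, standard error 0.43, edgeR, adjusted p = 0.105, 0.0488 with the block). On log2(FPKM + 1) DNAJB4 stood at -0.40 (limma, adjusted p = 0.345). With the block and GC correction DNAJC10 and DNAJC2 stood at -0.94 and -0.62, DNAJB4 turned to 0.48, and none passed (edgeR).

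DNAJB14, a membrane-bound J-domain protein, measured 24.3, 8.24 and 43.7 CPM in shControl cells and 5.66, 7.11 and 8.18 CPM in shNXN cells. The controls of days 9 and 11 lay far apart, and the log2 fold change of -1.86 (standard error 0.55) did not pass (edgeR, adjusted p = 0.0814, 0.0591 with the block). In FPKM DNAJB14 measured 7.96, 5.88 and 10.3 against 5.69, 11.5 and 5.82, a log2 fold change of -0.09 on log2(FPKM + 1) (limma, adjusted p = 0.841). With the block and GC correction it also stood at -0.09 (edgeR, adjusted p = 0.930). The fall in counts was thus not seen in either. DNAJA3, the mitochondrial partner of HSPA9, measured 94.9, 84.4 and 110.2 CPM against 133, 161 and 131 CPM and lay above its controls in each library (log2 fold change 0.55, standard error 0.16, edgeR, adjusted p = 0.0770, 0.0569 with the block). DNAJB1, the inducible HSP40, measured 188, 162 and 286 CPM against 272, 211 and 263 CPM, with overlapping groups (log2 fold change 0.23, standard error 0.23, edgeR, adjusted p = 0.495). The other 7, DNAJA1, DNAJA2, DNAJB2, DNAJB6, DNAJB12, DNAJC7 and DNAJC21, had log2 fold changes from -0.29 to 0.41.

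Several BAG proteins release the nucleotide of HSP70. BAG3, which links HSP70 to selective autophagy and is induced by stress, measured 56.0, 44.9 and 48.8 CPM in shControl cells and 62.6, 67.2 and 67.1 CPM in shNXN cells (log2 fold change 0.40, standard error 0.15, edgeR, adjusted p = 0.121). BAG1 and BAG6 were also above their controls in every library, at log2 fold changes of 0.37 and 0.22, and BAG2, at -0.46, was the member of the 4 below them. With the block and GC correction, BAG1, BAG2, BAG3 and BAG6 stood at 0.35, 0.81, 0.07 and -0.14, and none passed (edgeR).

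The 8 subunits of CCT, the ring-shaped cytosolic chaperonin that folds actin and tubulin and is built from a different subunit at each position of its ring, had unequal values. TCP1 measured 335, 382 and 393 CPM in shControl cells and 157, 139.7 and 350.5 CPM in shNXN cells. CCT8 measured 220.4, 304 and 280.0 CPM against 89.6, 87.5 and 189 CPM, and CCT4 measured 272.5, 288.5 and 352.5 CPM against 113, 118 and 341.5 CPM. These 3 subunits, and CCT2 at 201, 192.5 and 248 CPM against 115, 118 and 235 CPM, were lower on days 7 and 9, and only CCT8 of the 4 stayed outside the control range on day 11. CCT3, CCT5 and CCT7 differed by no more than 0.26 on any day, and CCT6A by -0.31, -0.30 and -0.10. The log2 fold changes of TCP1, CCT2 and CCT8 were -0.78, -0.46 and -1.14 (standard errors 0.34, 0.29 and 0.32, edgeR, adjusted p = 0.162, 0.300 and 0.0764), and CCT8 passed with the block (adjusted p = 0.0301). On log2(FPKM + 1) the log2 fold changes of TCP1, CCT2, CCT4 and CCT8 were 0.00, -0.21, -0.92 and -0.79. With the block and GC correction these 4 stood at -0.45, -0.34, -0.54 and -0.68. CCT3, CCT5, CCT6A and CCT7 stood at -0.06, 0.40, 0.17 and -0.14 in that fit, and none of the 8 passed (edgeR). The difference between subunits was not tested.

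**Figure D2:**
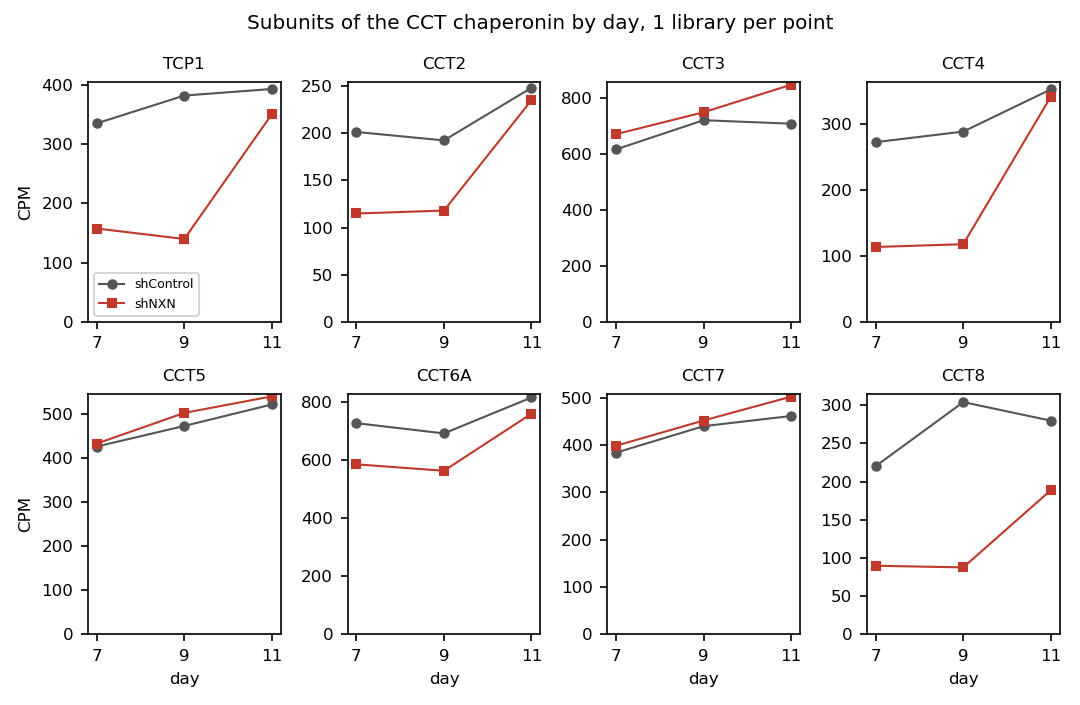
CPM (vertical axis, from 0) by day (horizontal axis) for the 8 CCT subunits, 1 library per point, shControl in grey circles and shNXN in red squares. TCP1, CCT2, CCT4 and CCT8 of shNXN cells lie well below their controls on days 7 and 9, while CCT3, CCT5 and CCT7 follow their controls.

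Day 11 was the highest of the 3 days in both groups for 24 of the 48 genes, beside 28.4% of all features, and the median log2 difference of day 11 from day 7, fitted over both groups, was 0.29 for the list and 0.07 for all features. By edgeR's test of both day terms 0 of the 48 genes passed, as did 0% of all features, while 9 had an unadjusted p under 0.05 (21.4% of all features) and DESeq2 called 6 (9.79% of all features), all higher on day 11. The 4 with the smallest p were HSPH1, HSPA1B, HSPA13 and HSPA8, at 1.02, 0.68, 0.73 and 1.09 above day 7 on the log2 scale (edgeR, adjusted p = 0.138, 0.157, 0.163 and 0.187). With shControl of day 11 left out, day 11 rested on its shNXN library alone, so no count of calls is given for that fit. Libraries of a day share what the labels give for that day alone, so that time in culture and any handling of that day cannot be told apart.

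Per length, the most abundant chaperone messages in shControl cells were HSPA8 at 907 ± 214 FPKM, HSP90AB1 at 836 ± 106, HSPD1 at 613 ± 129 and HSPB1 at 490.0 ± 7.04 (mean ± SD, n = 3). In shNXN cells HSPB1 stood at 775 ± 52.9, HSP90AB1 at 713 ± 248, HSPD1 at 628 ± 81.3 and HSPA8 at 616 ± 435 FPKM, and neighbours in this order overlapped between libraries. The sum of all 48 genes was 7276, 8408 and 8799 FPKM in shControl cells and 7808, 7772 and 9119 FPKM in shNXN cells, so the groups overlapped. In CPM the same sum was 13088, 13666 and 15655 in shControl cells and 10442, 10287 and 15703 in shNXN cells, lower in shNXN cells on days 7 and 9.

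The count and FPKM tables thus differed for some genes, and the length that joins them was computed from the ratio of the scaled count to the FPKM. For PTGES3 this implied length was 1591, 1509 and 1543 bases in shControl cells and 767, 764 and 887 bases in shNXN cells. PTGES3 measured 210.2, 148 and 236 FPKM against 199, 206 and 161 FPKM, and its log2 fold change was -0.05 on log2(FPKM + 1), with an adjusted p of 0.885 from limma. The fall of PTGES3 in counts was therefore not seen in FPKM.

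HSP90AA1 had an implied length of 3068, 3117 and 3045 bases in shControl cells and 781, 609 and 3053 bases in shNXN cells. In FPKM it was above its controls on days 7 and 9 (377 and 340.1 against 217 and 213) and below on day 11 (238 against 277). HSPA9 had 2693, 2793 and 2360 bases against 877, 722 and 2248 bases, and a log2 fold change of 0.78 on log2(FPKM + 1), against -0.39 in counts. HSPD1 (2000, 1393 and 1954 bases against 1030, 890 and 1672) and TCP1 (1507, 1191 and 1343 bases against 669, 534 and 1050) had log2 fold changes of 0.05 and 0.00 in FPKM.

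TRAP1, HSPB1 and HSPH1 had implied lengths that differed little between groups, and log2 fold changes of 0.62, 0.66 and -1.29 on log2(FPKM + 1). HSPA4, at 3438 bases in shControl of day 9 and 4500 to 4538 bases in the other 5 libraries, had -0.98. DNAJC10 had a greater implied length in shNXN cells on days 7 and 9, 6133 and 6000 bases against 4061 and 3873, and 3801 against 4363 bases on day 11, with a log2 fold change of -2.40. Limma called none of these 5 genes (adjusted p = 0.0731, 0.0604, 0.0972, 0.0713 and 0.0630). BAG2 had the greatest implied lengths relative to its controls, at ratios of 2.58, 2.74 and 1.43 on days 7, 9 and 11. It stood at -1.39 on log2(FPKM + 1) (limma, adjusted p = 0.0995), against -0.46 in counts. The implied length of the shNXN library was under 0.75 of that of its control for 13 of the 48 genes on day 7, 9 on day 9 and 5 on day 11 (27.1%, 18.8% and 10.4%), beside 19.9%, 17.0% and 12.3% of the features with both values. Limma on log2(FPKM + 1) called 0 of the 48 genes, with 17 at an unadjusted p under 0.05 (1.68% and 28.9% of all features). Which isoforms lie behind the implied lengths cannot be read from tables of whole genes, and their part in the count differences was not tested.

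The fold changes of the chaperone genes followed the GC content of their transcripts. Spearman's rho between GC content and log2 fold change was 0.78 over the 48 genes, which share the same 6 libraries and are not independent. Of the 22 genes under 45% GC, 20 had a log2 fold change below 0 and the median was -0.73, beside -0.78 for all tested features of that class. HSPA2 and CCT5 were the other 2. The 12 genes of 55% GC or more had a median of 0.38 (0.35 for all features), with 1 below 0, HSPA1A, and the 14 between these bounds had a median of -0.08 (0.12 for all features).

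With the day as a block and an offset for the GC trend of every library, edgeR called 0 of the 48 genes (0.931% of all features, 0.362% lower and 0.569% higher), and 19 had an unadjusted p under 0.05 (22% of all features). The median of the list was -0.07. TRAP1, HSPB1 and PTGES3 kept their sign, at log2 fold changes of 0.31, 0.21 and -0.45 (edgeR, adjusted p = 0.162, 0.272 and 0.336). Of the other 10 genes called with the block, HSPB11 and DNAJC10 stood at -0.97 and -0.94, HSF2, CCT8 and DNAJC2 at -0.71, -0.68 and -0.62, HSPH1 and HSPA4 at -0.32 and -0.26, and HSPA14 at -0.01. HSPA13, at 0.18, and DNAJB4, at 0.48, had the opposite sign. The correction removes any difference that follows GC content, whatever its origin, and the part of GC content in these differences was not tested further.

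A further list of 79 genes of the same pathways, with prefoldin, tubulin cofactors, mitochondrial proteases and other co-chaperones, had 78 genes in the table and 71 tested. Of these, 3 fell and 0 rose (4.23%, edgeR, beside 3.39% of all features), and 30 (42.3%) had an unadjusted p under 0.05, beside 32.9% of all features. SEC63, the J-domain protein of the translocation channel, fell from 187 ± 16.6 to 79.2 ± 21.7 CPM (SD, n = 3). PFDN4, a prefoldin subunit that hands actin and tubulin to CCT, fell from 26.4 ± 4.39 to 8.90 ± 3.09 CPM. TOMM70, the receptor through which HSP70 and HSP90 deliver precursors to mitochondria, fell from 132 ± 3.61 to 56.2 ± 19.7 CPM. Their log2 fold changes were -1.24, -1.57 and -1.24 (edgeR, adjusted p = 0.0452, 0.0473 and 0.0484). VBP1, another prefoldin subunit, had -1.33 and did not pass (edgeR, adjusted p = 0.0648). With the block 14 of the 71 passed, 9 lower and 5 higher (23.3% of all features). With the block and GC correction 1 passed (0.931% of all features), TBCA, a tubulin cofactor named after its value was seen, which was higher at a log2 fold change of 1.06 (edgeR, adjusted p = 0.0400) but lower, at -0.62, with the block alone. SEC63, PFDN4 and TOMM70 stood at -0.26, -0.18 and -0.65 with the block and GC correction and did not pass. The median of this list was 0.05, near that of all features.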

How the data were processed

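RNA was sequenced from 6 libraries of Hep3B cells, prepared per the labels with a SMARTER mRNA-Seq kit. The authors deposited an estimated count per gene and library, with 2 decimals, and an FPKM value for the same features. The aligner, counter, annotation and use of strand are not given in the sources used here. The submitters' processing notes name the mouse builds GRCm38 and mm10, while the identifiers are those of human genes. There were 0 columns without a sample. Reads shared by paralogs or overlapping genes make their counts uncertain.

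Counts were rounded and fitted over all features with edgeR 4.0.16 (R 4.3.3; TMM, filterByExpr, quasi-likelihood test, two-sided), and p-values were Benjamini-Hochberg adjusted over all 14071 tested features, with calls at 0.05. Standard errors are the log2 fold change divided by the square root of F. CPM (counts scaled to library size) used TMM factors. DESeq2 1.42.0, limma 3.58.1 on log2(FPKM + 1) and log2(FPKM + 0.1), other scalings and filters, the replicate block, a GC correction (natural spline, 5 degrees of freedom, GC of the longest GENCODE 29 transcript, known for 90.5% of tested features and all 48 genes) and each library left out were alternatives. Fits were tested on simulated data. Python 3.11.15 was used.

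Groups and days came from the labels. The replicate numbers follow the days, and deviations from the group means correlated at 0.39, 0.35 and 0.49 between libraries of the same day and at -0.42 to 0.17 between days, so the numbers were taken to pair the libraries. No 2 libraries of a group agreed within sampling noise.

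The members and lists were chosen with earlier results of these data known. The text names NXN, the 12 members with the smallest p, those called with or without the block, the 4 with the smallest p between days, the best known of each role, and 4 of the other chaperones; remaining members are given by range, and the CCT subunits as a whole set. At 15349382 to 16332589 counts per library, genes near 1 CPM rest on few reads.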

Additional observations from a re-analysis of the deposited data

Results flagged for a closer look

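For 6 of the 30 chaperone genes named by rule, the shNXN library was, in CPM, above its control on some days and below it on others. With 1 library per group and day, the difference between days was not tested, and no interval can be given for these values. In CPM, HSPA9, HSP90AB1, HSPD1 and HSPE1 were lower on days 7 and 9 and higher on day 11. Their log2 differences (CPM + 1) on days 7, 9 and 11 were -0.53, -0.80 and 0.02 for HSPA9, -0.40, -0.62 and 0.13 for HSP90AB1, -0.73, -1.09 and 0.11 for HSPD1, and -0.22, -1.03 and 0.23 for HSPE1. On log2(FPKM + 1) HSPA9 was higher on each day, by 1.13, 1.17 and 0.04. HSPD1 differed by 0.27, -0.42 and 0.29 on that scale, and HSP90AB1 and HSPE1 kept their signs. DNAJB1 had the opposite order, with 0.53, 0.38 and -0.12. HSPA1A, with 15.8 to 38.4 counts per library, had 0.22, -0.55 and -0.35.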

How the results depend on the processing

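With 3 libraries per group and 1 per day, calls depend on the model. The number of the 48 genes called, 3 with edgeR without the block, rose to 19 under DESeq2, to 13 under the replicate block, and to 5 under each of RLE scaling, plain library sizes and the absence of a filter (23.5%, 23.3%, 5.87%, 6.6% and 4.22% of all features, in this order). It was 0 for GC correction, alone or with the block (0.0355% and 0.931% of all features), and 0 for limma on log2(FPKM + 1) or log2(FPKM + 0.1) (1.68% and 0.142%). It was 22 with days 7 and 9 only (chosen after seeing the data, 31.8% of all features) and 21 without adjustment (32.9%). When 1 library was left out it was 0 to 20 (0% to 25.8%). The count of other chaperones, 3, was 19 with DESeq2 (23.5% of all features), 14 with the replicate block (23.3%) and 24 with days 7 and 9 only (31.8%). It was 0 with GC correction (0.0355%) or limma on log2(FPKM + 0.1) (0.142%), and 1 with the block and GC correction (0.931%). Without adjustment it was 30 (32.9%), and when 1 library was left out 0 to 13 (0% to 25.8%). The count between days, 0, was 6 with DESeq2 (9.79% of all features), 1 with no filter (1.56%) and 9 without adjustment (21.4%). When 1 library was left out, its day rested on 1 library, so no count between days is given for those fits. The median of -0.25 was -0.073 with GC correction, with or without the block, 0.025 on either FPKM scale, and -0.43 to -0.11 when 1 library was left out. NXN stood at -1.75 on log2(FPKM + 0.1), short of the threshold, and at -1.90 to -1.67 when 1 library was left out, short of it in 4 of these 6 fits. Among the 34 named genes, with GC correction, then with the block added, the sign turned for HSPA1B (-0.093 and -0.095), HSPA9 (0.048 and 0.041), HSPA13 (0.18 and 0.18), DNAJB1 (-0.047 and -0.0046), DNAJB4 (0.50 and 0.48) and STUB1 (-0.013 and -0.015). Of the remaining members, BAG2 (0.82 and 0.81), DNAJA1 (0.42 and 0.42), DNAJA2 (0.79 and 0.78), DNAJC21 (0.77 and 0.77) and CCT6A (0.16 and 0.17) turned above 0 in these fits. DNAJB2, DNAJB6, BAG6, CDC37, AHSA1, CCT3 and CCT7 turned below 0, to between -0.14 and -0.01. On log2(FPKM + 1) and log2(FPKM + 0.1) the sign turned, among the named genes, for HSPA9 (0.78 and 0.78), HSP90AA1 (0.41 and 0.42), HSPD1 (0.049 and 0.049) and TCP1 (0.00090 and 0.00093). Of the remaining members, DNAJC21 turned on log2(FPKM + 1), to 0.09. The cause was not tested. Of the 374 values of the 34 named genes under the other alternatives, 280 kept direction and call, 22 lost the call, 52 gained it and 20 turned sign; of 204 with 1 library left out, 156 kept both, 29 lost the call, 19 gained it and 0 turned sign.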
